A study of Mus musculus with 3 samples.

Results

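The comparison described here set whole testis against brain, using 1 library of each from male C57BL/6 mice aged 11 weeks, with a liver library for reference. Polyadenylated RNA was sequenced strand-specifically, and the labels give neither a genotype beyond the strain nor a treatment, nor do they say whether the organs came from 1 animal or were pooled. Gene abundance was the deposited FPKM (fragments scaled to transcript length and to the number of mapped fragments), which has a lower and an upper bound for each gene and library. The genes compared were those whose locus spans 200 bp or more and whose estimate was marked OK in both libraries. They numbered 30278 of the 36810 identifiers in both tables. Of the rest, 5012 span less than 200 bp and 1520 had an estimate not marked OK in at least 1 of the libraries. Among the genes compared, 5398 were listed at 0 in both libraries, 14630 reached 1 FPKM in testis, 13465 in brain and 10717 in both.

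The adult testis makes sperm continuously: spermatogonia divide, spermatocytes recombine their chromosomes and halve the genome in meiosis, and round spermatids build an acrosome and a flagellum while their histones are replaced by transition proteins and then protamines. Meiotic cells silence the X chromosome, and many housekeeping enzymes have a second gene copy that is used in germ cells. Brain tissue is built from neurons, which signal through synapses and ion channels, and from oligodendrocytes, astrocytes, microglia and vessels.

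A difference below is always testis minus brain in log2(FPKM + 1), a scale that understates the differences of genes at low levels. A gene was called higher or lower in testis when this difference was 4-fold or more and the deposited intervals were apart. Each tissue has 1 library, so there is no replicate spread and no test, and the intervals hold only the error of estimation inside one library. In whole organs, fewer cells of a type and less RNA per cell cannot be told apart.

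By this rule 3910 genes (12.9% of those compared) were higher in testis and 2199 (7.26%) were lower. The protein-coding genes numbered 18907, of which 2767 (14.6%) lay on the testis side and 1969 (10.4%) on the brain side. Of the 17378 genes at 1 FPKM or more in either library 22.5% were higher and 12.7% lower. The median difference was 0.19 over those genes and -0.02 over the protein-coding ones among them. Of the 6109 called genes, 3910 were thus on the testis side (exact 95% interval of the share 62.8 to 65.2%, counting error only). That split depended on the scale: the share was 63.7% with median-ratio scaling, 52.7% after scaling to the summed FPKM of the genes compared, and 49.1% after scaling to the summed FPKM of protein-coding genes. The protein-coding sums were 542624 FPKM in testis against 329896 in brain, a ratio of 1.64. Scaling to the protein-coding sum shifted the median difference of genes at 1 FPKM or more by -0.61, and scaling to the sum of all genes shifted it by -0.47.

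The testis side held the steeper differences. At 16-fold or more 1618 genes were higher and 429 lower, and at 64-fold 609 and 63. Genes abundant in either library were also called higher more often than lower. Of the 1317 protein-coding genes that reached 100 FPKM in at least one library, 709 (53.8%) were higher in testis and 212 (16.1%) lower. Of the 6185 genes between 1 and 10 FPKM 476 were higher and 544 lower. The level is the higher of the values that make the call, so this split is no separate support. In addition, the protein-coding sum was larger in testis, and a gene just above 1 FPKM cannot be 4-fold apart on this scale. Genes higher in testis held 64.2% of the protein-coding FPKM of that library. The genes lower in testis held 35.8% of the protein-coding FPKM of brain, where uncalled genes held 60.7%. Near the threshold, Adat2 was called at 7.85 FPKM in testis against 1.21 in brain, and Ap4b1 was not, at 18.6 and 3.91. On the other side Myh9 was called at 2.02 FPKM in testis against 11.1 in brain, and Ppp1r9a was not, at 2.39 and 12.5.

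**Figure D1:**
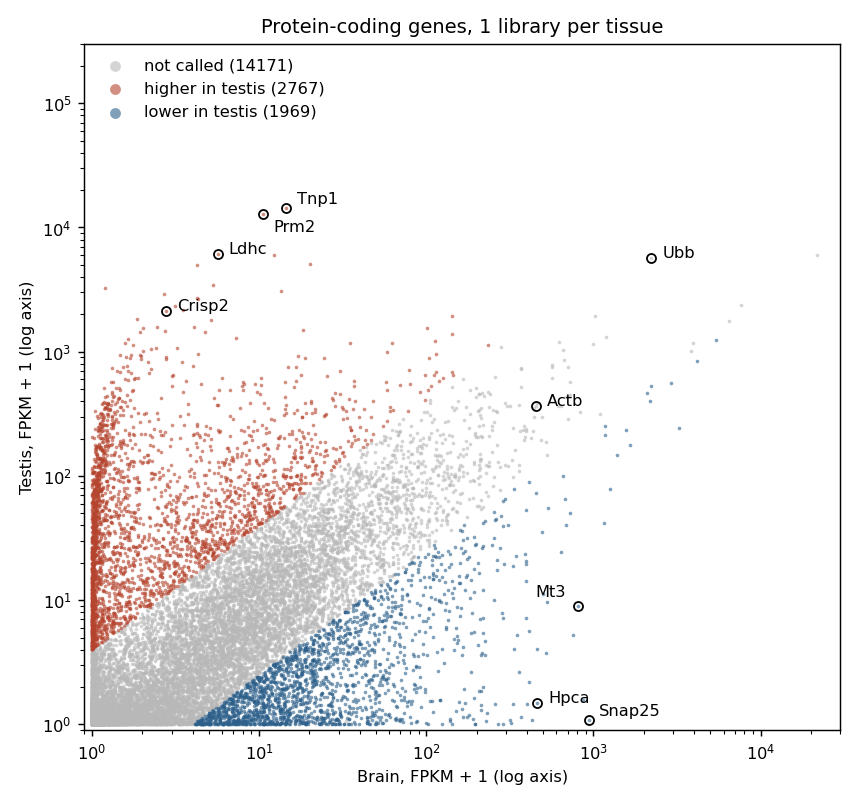
FPKM + 1 of 18907 protein-coding genes in brain (x axis) and testis (y axis), both on log axes, 1 library per tissue; points are coloured by call and 9 genes are circled. The testis germ cell genes Tnp1, Prm2, Ldhc and Crisp2 stand at the upper left above 1 FPKM in brain, while Snap25 and Hpca lie near the brain axis.

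Marker genes mostly went with the tissue labels, with exceptions. The neuronal marker Rbfox3 was at 68.2 FPKM in brain against 0.0981 in testis, the astrocyte marker Gfap at 55.3 and 0.214, and the spermatocyte marker Sycp3 at 139 FPKM in testis against 0.611 in brain. Acrv1, of the acrosome of round spermatids, was at 170 FPKM in testis against 0.0592 in brain. Against the labels, the spermatogonial marker Zbtb16 was at 0.146 FPKM in testis against 1.93 in brain, the Sertoli marker Sox9 at 2.95 and 4.83, and the choroid plexus marker Folr1, which was outside the genes compared, at 30.2 and 10.8. The epididymis markers Lcn5 and Lcn8 were listed at 0 in both libraries, and the hepatocyte gene Alb was at 3.79 FPKM in testis against 3.73 in brain against 20975 in liver. Germ cell genes were present at low levels in the brain library. Among the 50 genes with the highest testis FPKM that were 16-fold or more higher, the brain value had a median of 0.119% of the testis value (quartiles 0.0760% and 0.252%), and none was listed at 0. In liver the median for the same genes was 0.00179%, and 10 were listed at 0. Tnp1 was at 13.5 FPKM in brain, 0.0940% of its testis level, Prm2 at 0.0739%, Tnp2 at 0.0653% and Crisp2 at 0.0834%. Cmtm2a, a chemokine-like membrane gene with 3287 FPKM in testis, was the lowest at 0.00590%. At the other end were Pabpc1 at 5.73% and Bag5 at 5.14%. The set was picked by testis level, so it also holds genes expressed elsewhere, such as Pabpc1, which was at 90.9 FPKM in liver. The 50 brain genes chosen in the same way had a testis value with a median of 1.05% of the brain value, 2 of them listed at 0. These low values set how large a fold can be, and their part in the differences was not tested.

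**Figure D2:**
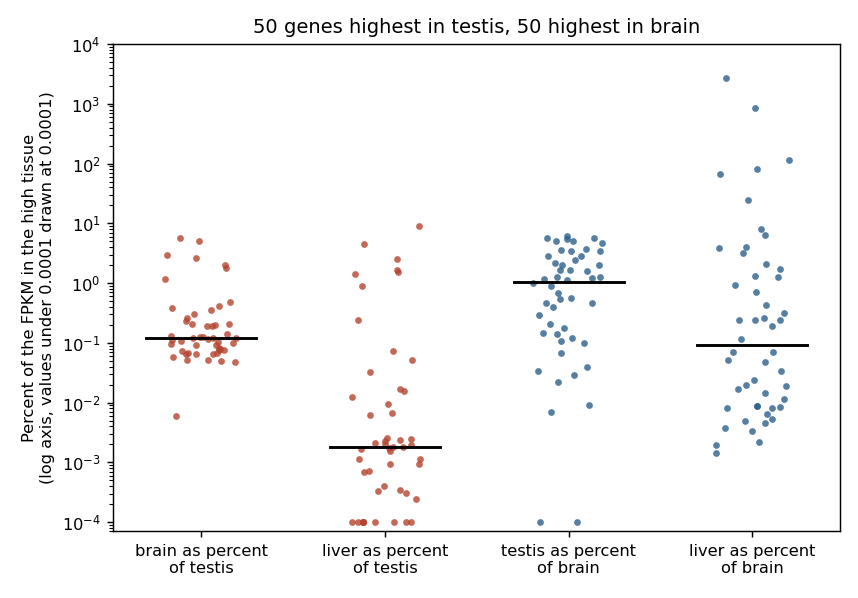
FPKM in another library as percent of the FPKM in the high tissue (log y axis) for the 50 genes highest in testis and the 50 highest in brain among genes 16-fold or more apart; points are genes and black lines are medians. The genes highest in testis had a median of 0.119% in brain but 0.00179% in liver, with single genes up to 5.73% and 9.12%. Those highest in brain had a median of 1.05% in testis, and the last column gives liver as percent of brain.

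Genes for sperm structure gave the largest differences of the 49 function lists compared. The lists for testis and for brain hold genes known for their use there, so the direction of such a list describes its choice, and the size and the exceptions are what the values add. All 30 acrosome and fertilization genes compared were higher in testis, with a median difference of 6.07. Adam3, a sperm surface protein needed for passage to the egg, was at 670 FPKM (interval 646 to 694) in testis against 1.21 (0.192 to 2.22) in brain. Spaca7, of the acrosome matrix, was at 262 FPKM (257 to 266) and 0.119 (0.0125 to 0.225). Izumo3, of the family that includes the sperm-egg fusion protein, was at 239 FPKM (232 to 246) and 0.0503. The smallest difference in this list was 3.04, so the lowest member also passed 4-fold.

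Of 29 genes for the accessory structures of the flagellum 28 were higher, with a median of 7.36. Odf1, an outer dense fibre protein, was at 1822 FPKM (1812 to 1832) in testis against 0.864 (0.639 to 1.09) in brain, and Smcp, of the mitochondrial sheath, at 2892 FPKM and 1.69. The list summed to 25580 FPKM in testis against 320 in brain. Sperm ion channels and motility signalling gave 22 of 27 higher (median 5.11). The testis serine kinases led there, with Tssk2 at 233 FPKM in testis against 0.0891 in brain, Tssk1 at 230 and 0.127, and Tssk6 at 178 and 0.103. The intervals of each of these kinases were far apart.

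The shared machinery of cilia and flagella was higher to a smaller degree. Dynein arm and radial spoke genes gave 27 of 34 higher (median 3.63). Dnaaf1, which assembles dynein arms, was at 298 FPKM (296 to 301) in testis against 0.187 (0.125 to 0.248) in brain, and Rsph1, of the radial spoke head, at 1300 FPKM and 6.27. Intraflagellar transport and basal body genes gave 21 of 35 higher with a median of 2.17, and 12 with a median of 1.47 after scaling to the protein-coding sum. Cetn1, the germ cell centrin, was at 602 FPKM in testis against 0.569 in brain, but Ift140, a transport subunit of all cilia, was at 125 FPKM and 5.58. None of these 4 lists of sperm and cilium genes had a member lower in testis, though with that scaling the basal body centrin Cetn2 was (deposited values 18.1 FPKM in testis against 53.9 in brain).

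Most genes of meiosis and its genome defence were also higher in testis. Of 28 genes for recombination and synapsis 21 were higher (median 3.26). Syce1 and Syce2, of the central element of the synaptonemal complex, were at 587 and 227 FPKM in testis against 0.639 and 1.54 in brain. Stag3, the meiotic cohesin subunit, was at 174 FPKM (168 to 181) and 0.245 (0.180 to 0.309). Of 18 genes that silence transposons 15 were higher (median 3.98). Gtsf1, a partner of Piwi proteins, was at 1131 FPKM in testis against 0.760 in brain, Mael at 430 and 0.344, and the germ cell helicase Ddx4 at 132 and 0.705. No member of either list was lower.

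Regulators and chromatin genes were more mixed in size. Of 20 transcription regulators of germ cells 14 were higher (median 2.99). Rfx2, a factor for ciliary and spermatid genes, was at 56.7 FPKM (52.4 to 60.9) in testis against 0.385 (0.303 to 0.466) in brain. Dmrtb1, which controls entry into meiosis, was at 213 FPKM and 0.209. Chromatin packing and testis histones gave 10 of 20 higher with a median of 2.16, or 1.71 with scaling to the protein-coding sum. Prm1, a protamine, was at 1542 FPKM (1524 to 1559) and 1.01 (0.557 to 1.46). Tnp1 and Prm2, a transition protein and a protamine, held 14339 and 12924 FPKM of the 35987 that the list summed to in testis.

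Somatic cells of the testis were visible as well. Of 10 genes for steroid synthesis in Leydig cells 7 were higher (median 3.80). Cyp17a1, the enzyme that leads to androgens, was at 76.6 FPKM in testis against 0.0409 in brain. Hsd3b6, of the same pathway, was at 18.9 FPKM in testis and listed at 0 in brain. Of 19 Sertoli cell and junction genes 6 were higher and 1 lower (median 1.595). Defb19, a beta-defensin, was at 438 FPKM and 0.354, and Cst12, a cystatin, at 117 and 0.0340. Trf, the transferrin gene, stood the other way, with 641 FPKM (633 to 648) in brain, 23.4 in testis and 17060 in liver.

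Mitosis and cyclin genes lay mostly on the testis side, and DNA replication and repair genes did so less. Of 42 mitosis and cyclin genes 27 were higher and 1 lower (median 3.05), or 24 and 4 after scaling to the protein-coding sum. Ccnb2, a B-type cyclin, was at 128 FPKM (126 to 130) in testis against 0.788 (0.612 to 0.965) in brain, Aurka at 97.9 and 0.502, and Nek2 at 62.0 and 0.153. Plk2, a polo-like kinase also induced by neuronal activity, was the lower gene, at 5.05 FPKM and 61.7. Of 44 DNA replication and repair genes 15 were higher and none lower (median 1.58), or 6 higher after scaling to the protein-coding sum. Without that scaling 34.1% of this list was higher, against 14.6% of all protein-coding genes compared. Examples were Mcm7, of the replicative helicase, at 76.0 FPKM and 4.13, and the damage kinase Atr at 29.6 and 0.997.

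**Figure D3:**
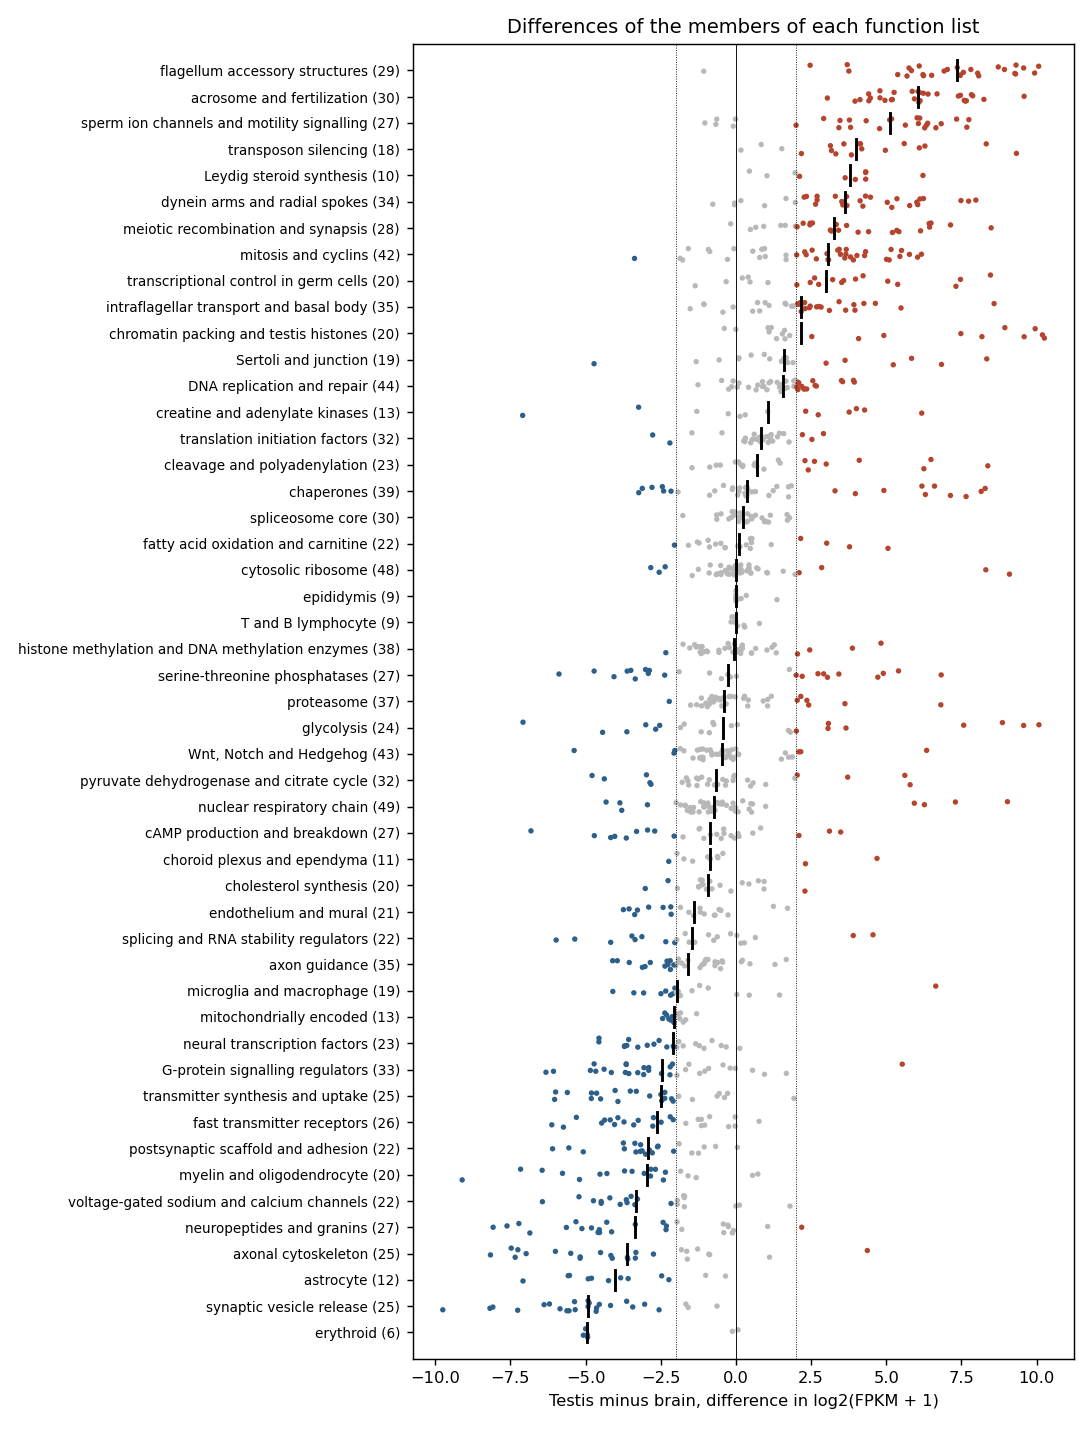
Testis minus brain difference in log2(FPKM + 1) for the members of 49 function lists, ordered by median; each point is a gene (red called higher, blue called lower, grey not called), black bars are list medians, dotted lines mark 4-fold, and member numbers stand in parentheses. Flagellum genes (median 7.36) and acrosome genes (6.07) stand at the top, spliceosome and ribosome genes lie around 0, and synaptic vesicle genes (-4.92) and globins (-4.94 for the erythroid list) at the bottom.

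Among the brain function lists, the machinery of transmitter release had the largest median difference. Of 25 synaptic vesicle genes 22 were lower in testis, with a median of -4.92, and none was higher. Syp, an integral vesicle protein, was at 316 FPKM (313 to 319) in brain against 0.0924 (0.0352 to 0.150) in testis. Syt1, the calcium sensor of release, was at 180 FPKM (177 to 184) and 0.185 (0.135 to 0.236), and Cplx1, which clamps the fusion complex, at 398 and 0.470. The sum over the list was 3431 FPKM in brain against 36.8 in testis. The axonal cytoskeleton gave 17 of 25 lower and 1 higher (median -3.61). Gap43, a growth cone protein, was at 212 FPKM in brain against 0.316 in testis, and Stmn3 at 286 FPKM and listed at 0. The exception was Dpysl3, of the collapsin response mediator family, at 142 FPKM (135 to 149) in testis against 5.89 (5.42 to 6.37) in brain.

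Neuropeptide and granin genes gave 17 of 27 lower and 1 higher (median -3.35). Cck and Sst, which encode cholecystokinin and somatostatin, were at 268 and 195 FPKM in brain, and both were listed at 0 in testis. Scg5, which helps to mature a peptide-cutting protease, was at 212 FPKM and 0.434. Pomc, the precursor of melanocortins and endorphin, was the member higher in testis, at 6.18 FPKM (5.55 to 6.81) in testis against 0.576 (0.381 to 0.770) in brain, a call that ended with scaling to the protein-coding sum or to the sum of all genes.

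Receptors, channels and synaptic scaffolds followed. Fast transmitter receptors gave 16 of 26 lower (median -2.61). Glrb, a subunit of the glycine receptor, was at 54.0 FPKM in brain against 0.0309 in testis. Sodium and calcium channels gave 13 of 22 lower (median -3.32), with the calcium channel gamma subunit Cacng3 at 36.6 FPKM (35.4 to 37.8) and 0.00970. Postsynaptic scaffold and adhesion genes gave 16 of 22 lower (median -2.94), with the scaffold Dlg4 at 72.9 FPKM and 0.570 and the kinase Camk2b at 104 and 0.535. Transmitter synthesis and uptake gave 18 of 25 lower (median -2.50), with the GABA-making enzyme Gad1 at 70.2 FPKM and 0.115. In these 4 lists no member was higher in testis.

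Developmental genes of the nervous system differed less. Axon guidance gave 12 of 35 lower (median -1.59), with the ephrin receptor Epha4 at 16.4 FPKM in brain against 0.0148 in testis. Neural transcription factors gave 13 of 23 lower (median -2.08), with Mef2c at 35.3 FPKM and 0.544 and Neurod6 at 22.5 FPKM and listed at 0. No gene of these lists was higher in testis.

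Glia and blood moved with the comparison too, and vessel genes did so in part. Of 20 myelin and oligodendrocyte genes 15 were lower in testis (median -2.94). Mal, a lipid-raft protein of myelin, was at 75.8 FPKM (72.9 to 78.7) in brain against 0.410 (0.216 to 0.605) in testis, and Plekhb1 at 166 and 0.924. Of 12 astrocyte genes 10 were lower (median -4.03), with S100b at 86.4 FPKM and 0.829 and the gap junction gene Gjb6 at 29.1 FPKM and listed at 0. Endothelial and mural genes gave 8 of 21 lower (median -1.41), led by the blood-brain barrier transporter genes Slco1c1, at 12.4 FPKM and listed at 0, and Slc2a1, at 37.7 and 2.30. The general endothelial genes Pecam1, Cdh5 and Kdr were uncalled. The mural genes Acta2 and Myh11, named after their values were seen, were uncalled with more in testis. They were at 22.3 and 6.21 FPKM in testis against 6.10 and 2.04 in brain. Of 19 microglia and macrophage genes 8 were lower and 1 higher (median -1.96), and 13 were lower after scaling to the protein-coding sum. P2ry12, a microglial receptor, was at 9.48 FPKM in brain against 0.250 in testis. Aif1, commonly used as a microglia marker, went the other way, with 375 FPKM (368 to 382) in testis against 2.76 (1.59 to 3.93) in brain. All 4 globin genes compared were lower, with Hba-a1 at 152 FPKM in brain against 3.53 in testis and Hbb-bs at 153 and 3.81, although reads may be shared between such near-identical copies. The erythroid list summed to 544 FPKM in brain against 13.3 in testis, and the part of blood in the other differences was not tested. T and B lymphocyte genes summed to 1.76 FPKM in testis against 0.805 in brain, and none of 9 was called.

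Energy metabolism showed a pattern that list medians hide: for several enzymes a germ cell copy was higher while its somatic copy was lower. Glycolysis had a median of -0.44, with 8 of 24 genes higher and 6 lower. The sum over the list was 10101 FPKM in testis against 2764 in brain. Ldhc, the germ cell copy of lactate dehydrogenase, alone held 6092 FPKM of the testis sum, against 4.64 in brain. Pgk2, a retrogene copy of phosphoglycerate kinase, was at 686 FPKM (681 to 691) in testis against 0.475 (0.340 to 0.609) in brain. Its X-linked parent Pgk1 was at 4.06 FPKM (3.70 to 4.42) and 108 (106 to 110). Gapdhs, bound to the fibrous sheath of the tail, was at 1254 FPKM and 0.653, and Gapdh at 10.5 and 141. Pgam2, the muscle form of phosphoglycerate mutase, was at 769 FPKM and 3.04. Aldoc, the brain aldolase, was at 1.64 FPKM and 356.

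The citrate cycle and the respiratory chain showed the same pairing. Pyruvate dehydrogenase and citrate cycle genes gave 4 of 32 higher and 5 lower (median -0.66), with 10 lower after scaling to the protein-coding sum. These shares were 12.5% and 15.6%, against 22.5% and 12.7% of all genes at 1 FPKM or more in either library. Pdha2 was at 50.5 FPKM (49.4 to 51.6) in testis against 0.0490 in brain, and Pdha1, on the X chromosome, at 1.73 and 55.7. Malate dehydrogenase gave Mdh1b at 90.7 FPKM in testis against 0.654 in brain, and Mdh1 at 13.4 and 396. Nuclear genes of the respiratory chain gave 4 of 49 higher and 4 lower (8.16% each way, median -0.73), and 13 lower after scaling to the protein-coding sum. The higher ones were testis forms: Cox8c was at 882 FPKM and 0.687, Cox7b2 at 578 and 2.68, Cox6b2 at 133 and 1.19, and the testis cytochrome c gene Cyct at 82.9 and 0.0882. Of 13 mitochondrially encoded genes 7 were lower and none higher (median -2.06, range -2.44 to -1.31), and all 13 were lower after that scaling. Their sum was 16714 FPKM in testis against 63748 in brain. mt-Nd2, a subunit of complex I, was at 400 FPKM in testis against 2172 in brain.

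Phosphate transfer genes were divided by member. The 2 lists of lipid genes had smaller shares called each way than all genes at 1 FPKM or more in either library (22.5% higher, 12.7% lower). Of 13 creatine and adenylate kinases 6 were higher and 2 lower (median 1.06). Ak8 and Ak7, adenylate kinases of cilia and flagella, were at 120 and 42.4 FPKM in testis against 0.667 and 1.70 in brain, while the brain creatine kinase Ckb was at 2.79 FPKM and 516. Fatty acid oxidation gave 4 of 22 higher and 1 lower (median 0.10), with the carnitine acyltransferases Cpt1b at 47.4 FPKM and 0.455 and Cpt2 at 37.4 and 3.74. Cholesterol synthesis gave 1 of 20 higher and 2 lower (median -0.93), with Msmo1 at 5.08 FPKM in testis against 48.1 in brain.

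Copies of this kind were compared as 35 pairs of a somatic gene and a germ cell relative, of which 32 had both genes in the comparison. The germ cell copy was higher in testis in 31 pairs and uncalled in 1. The pairs were chosen for copies known to be used in germ cells, so the direction of those copies describes the choice. The somatic copy was lower in 17, higher in 1 (Aurkb) and uncalled in 14. In testis the germ cell copy held more than 50% of the summed FPKM of the pair in 29 pairs, and in brain it did so in 1. Tuba3a held 93.1% in testis and 0.0589% in brain next to Tuba1a, and Hspa2 74.7% and 0.954% next to Hspa8. Tuba3a has a near-identical copy, so its value is less certain. The pair that went against the pattern was Gsk3a with Gsk3b: the alpha form held 21.5% in testis and 71.2% in brain, and neither was called. The alpha form was at 12.5 FPKM in testis against 26.5 in brain.

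**Figure D4:**
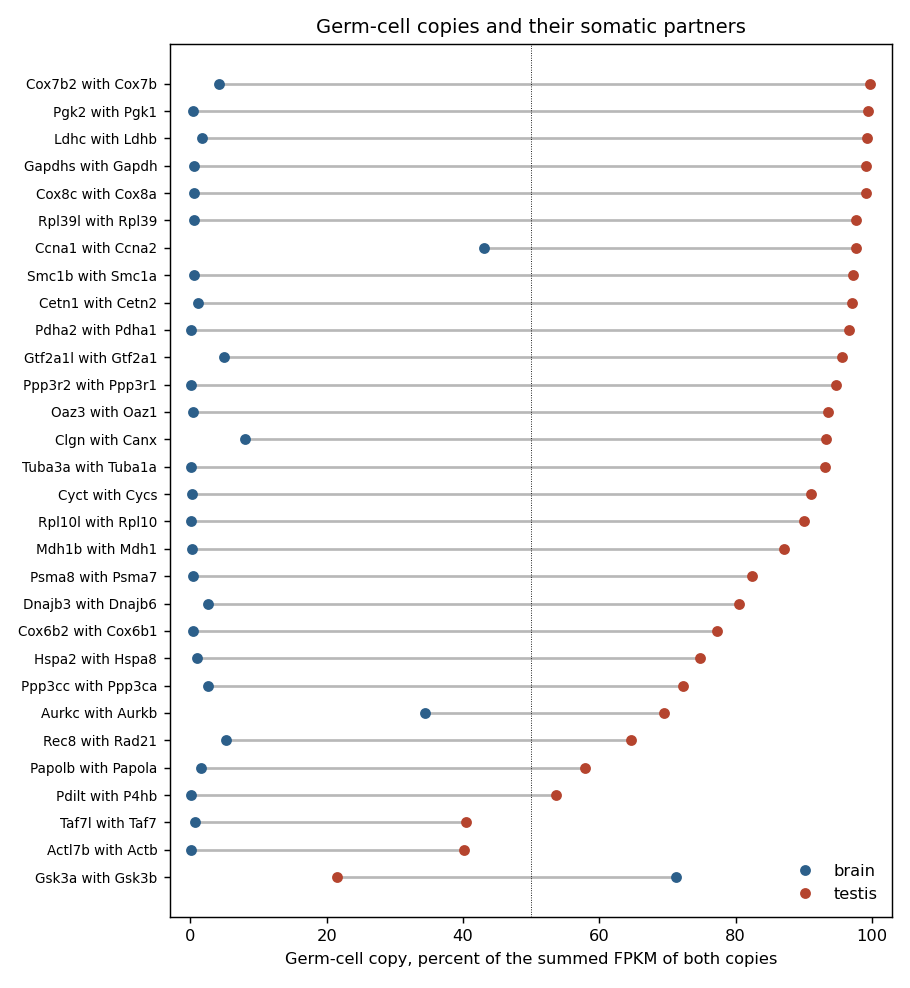
Share of the germ cell copy in the summed FPKM of each pair (x axis, percent) in brain (blue) and testis (red) for 30 of the pairs, 1 library per tissue. In 27 of them the testis point lies right of the dotted 50% line; the glycogen synthase kinase pair at the bottom is reversed, with 71.2% in brain and 21.5% in testis.

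The somatic partner was X-linked in 8 of the 32 pairs, among them Pgk1, Pdha1, Cox7b, Rpl10, Rpl39, Smc1a and Cetn2. It was lower in testis in 7 of these 8 (median difference -3.06) and in 10 of the 24 with a partner elsewhere (median -1.19). None of the germ cell copies of the 8 X-linked genes is on the X chromosome. As the pairs were picked for known germ cell copies, these counts describe the pairs chosen, not X-linked genes at large. They are no separate support. Smc1b, the meiotic cohesin subunit, held 97.2% of its pair in testis and 0.563% in brain, where Smc1a was at 21.2 FPKM against 2.23 in testis.

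The general gene expression machinery differed little. None of the 30 spliceosome core genes was called, with a median of 0.25 and a range of -1.77 to 1.79, and the median was -0.42 with scaling to the protein-coding sum. Cytosolic ribosomal protein genes gave 4 of 48 higher and 3 lower with a median of 0.00, or -0.71 with that scaling. Pairs stood out among the called genes. Rpl39l was at 935 FPKM (922 to 948) in testis against 0.710 (0.270 to 1.15) in brain and Rpl10l at 383 and 0.210, while Rpl39 was at 22.5 FPKM and 137 and Rpl10 at 42.8 and 223. Rps4l was at 57.8 FPKM and 7.15, and the X-linked Rps4x at 7.02 and 56.1. Translation initiation factors gave 3 of 32 higher and 2 lower (median 0.82; 1 and 3 after that scaling), with the cap-binding homolog Eif4e2 at 102.99 FPKM and 12.8 and the X-linked Eif2s3x at 1.64 and 17.0.

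Splicing regulators and the poly(A) machinery differed more. Of 22 splicing and RNA stability regulators 8 were lower and 2 higher (median -1.46). Rbfox3 and Celf4, of neurons, were at 68.2 and 84.2 FPKM in brain and 0.0981 and 1.07 in testis, and Elavl3 at 25.9 and 0.500. Rbm44, an RNA-binding gene of germ cells, was at 23.4 FPKM in testis against 0.0360 in brain, and Rbmxl2 was listed at 0 in brain. Of 23 cleavage and polyadenylation genes 8 were higher and none lower (median 0.69), or 5 higher after scaling to the protein-coding sum. Pabpc1, the main poly(A)-binding protein, was at 996 FPKM (985 to 1007) in testis against 57.1 (54.3 to 59.8) in brain. Its germ cell relatives Pabpc2 and Pabpc6 were at 394 and 95.7 FPKM in testis against 0.188 and 0.0788 in brain. Papolb, the cytoplasmic poly(A) polymerase of spermatids, was at 109 FPKM and 0.446, against 79.1 and 27.9 for Papola.

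Chromatin-modifying enzymes were mostly uncalled, with 4 of 38 histone and DNA methylation enzymes higher and 1 lower (median -0.08), or 2 and 2 after scaling to the protein-coding sum. Without that scaling the shares were 10.5% and 2.63%, against 14.6% and 10.4% of all protein-coding genes compared, most of which were uncalled too. Kdm4d, a histone demethylase, was at 34.0 FPKM in testis against 0.237 in brain and the polycomb methyltransferase Ezh2 at 35.4 and 1.48.

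Protein turnover genes were called in both directions, general core subunits included. The shares were 16.2% higher and 2.70% lower for proteasome genes, and 25.6% and 15.4% for chaperones. Over all genes at 1 FPKM or more in either library they were 22.5% and 12.7%, so calls in both directions were common among expressed genes. Proteasome genes gave 6 of 37 higher and 1 lower (median -0.40), or 2 and 3 after scaling to the protein-coding sum. Psma8, the alpha subunit of the spermatoproteasome, was at 146 FPKM (140 to 152) in testis against 0.308 (0.117 to 0.500) in brain, and Psme4, its activator, at 122 and 8.95. The other 4 higher members were general subunits, Psma6 at 472 FPKM in testis against 91.1 in brain, Psmc3 at 336 and 62.0, Psmc2 at 192 and 46.0 and Psmd8 at 105 and 22.7. Those 4 calls ended with scaling to the protein-coding sum. Psmb10, an immunoproteasome subunit, was the lower member. Chaperones gave 10 of 39 higher and 6 lower (median 0.37, or -0.34 with scaling to the protein-coding sum). Dnajb3, Hspb9 and Cct6b were at 871, 370 and 261 FPKM in testis against 1.79, 0.301 and 0.300 in brain. Tcp1, a core subunit of the cytosolic chaperonin, was at 1400 FPKM and 142. Hspa8, the constitutive heat shock protein, was lower at 146 FPKM and 1380, as were Hsp90ab1 at 213 and 1169, Hsph1 at 23.8 and 170 and the mitochondrial chaperonin Hspd1 at 15.8 and 74.1.

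Signalling lists split by isoform, with calls in both directions. Serine-threonine phosphatases gave 10 of 27 higher and 10 lower (median -0.27). Ppp3r2 and Ppp3cc, which form the sperm calcineurin, were at 129 and 79.5 FPKM in testis against 0.144 and 6.49 in brain, while Ppp3r1 and Ppp3ca were at 7.24 and 30.5 FPKM in testis against 136 and 252 in brain. Ppm1j was at 33.8 FPKM and 0.165. Ppp2r2c, a brain regulatory subunit, was at 0.240 FPKM and 72.2. Of 27 genes of cAMP production and breakdown 3 were higher and 9 lower (median -0.85). Prkar2a, a regulatory subunit of protein kinase A, was at 61.0 FPKM and 4.55, and Prkar1b at 3.08 and 458.

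G-protein signalling genes were lower more often than they were higher, with 20 of 33 lower and 1 higher (median -2.47). Rgs7 and Rgs4, which speed the shut-off of G proteins, were at 80.3 and 91.7 FPKM in brain and 0.0188 and 0.383 in testis. Rgs22 was the reverse, at 52.0 FPKM (51.1 to 52.8) in testis against 0.145 (0.0994 to 0.191) in brain. Wnt, Notch and Hedgehog genes gave 3 of 43 higher and 3 lower (median -0.45), or 1 and 5 after scaling to the protein-coding sum. Without that scaling this was 6.98% each way, against 14.6% higher and 10.4% lower of all protein-coding genes compared. Dkkl1, an acrosomal protein named for its likeness to Wnt inhibitors, was at 1487 FPKM in testis against 17.3 in brain, and Dkk3 at 0.0729 and 43.7.

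Gene families were then read from symbols, taking the letters before the first digit as a stem. Of 246 stems with 10 or more protein-coding members, 11 had 50% or more of their members higher in testis and 3 had 50% or more lower. After scaling to the protein-coding sum these numbers were 8 and 8, and Ccdc, Cep and Ift no longer reached 50%. With a pseudocount of 0.01 they were 22 and 22. Calls in both directions occurred in 127 stems and none in 30. Several stems were named after testis expression, so their share is a property of how they were named. The spermatogenesis-associated Spata genes gave 25 of 27 higher and the testis-expressed Tex genes 33 of 37, with Tex33 at 1174 FPKM in testis against 0.577 in brain. Stems named for cilia, centrosomes or tubulin were also high on the list: Cfap gave 25 of 28, Ttll, the tubulin glutamylases and their relatives, 9 of 13, Cep 21 of 33, Dnah 7 of 11 and Ift 8 of 14. With that scaling Cep fell to 14 and Ift to 5. The EF-hand stem Efcab, named for a calcium-binding domain, gave 10 of 12, with Efcab9 at 232 FPKM and 0.574. The coiled-coil Ccdc genes, the largest of these stems, gave 67 of 128 higher and 2 lower, or 58 and 6 after that scaling. The nuclear pore stem Nup gave 9 of 19 higher, or 5 after it, with Nup205 at 62.5 FPKM and 3.63.

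Some stems held members called in each direction. Over all protein-coding genes compared 14.6% were higher and 10.4% lower, so a stem of 10 or more members can hold both calls without a pattern of its own. The higher shares of the syntaxin (13.3%) and Mapk (11.1%) stems below were under that 14.6%. Adam genes gave 20 of 29 higher and 2 lower, or 20 and 4 after scaling to the protein-coding sum. Adam5 was at 678 FPKM (671 to 685) in testis against 0.704 in brain, whereas Adam23 and Adam11, which bind synaptic proteins, were at 0.522 and 0.746 FPKM in testis against 12.2 and 8.17 in brain. Septin genes gave 3 of 13 higher and 5 lower. Sept12, of the sperm annulus, was at 202 FPKM and 0.154, and Sept8 at 0.996 and 91.0. Syntaxins gave 2 of 15 higher and 5 lower, with Stx17 and Stx2 at 41.4 and 83.7 FPKM in testis against 3.26 and 14.8 in brain (the Stx2 call ended with either sum scaling), and Stx1a at 1.34 in testis against 57.7 in brain. Mapk and its interacting proteins gave 2 of 18 higher and 7 lower, with Mapk6 at 72.1 FPKM and 7.58 and Mapk8ip1 at 4.29 and 48.7.

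The stems with the highest shares lower in testis were Gng (6 of 10), Syt (8 of 14), Scn (6 of 11) and Rgs (9 of 19). Gng3, a G-protein gamma subunit, was at 0.352 FPKM in testis against 37.7 in brain, but Gng5 was higher, at 86.9 and 15.7, a call that ended with scaling to the protein-coding sum or to the sum of all genes. Syt4 was at 0.00345 FPKM and 28.1. Tetraspanins gave 7 of 18 lower and 1 higher, with Tspan7 at 1.20 FPKM and 411 and Tspan6 at 130 and 9.98. Kcnj potassium channels gave 4 of 11 lower and none higher, with the glial channel Kcnj10 at 0.0196 FPKM and 50.4. The S100 calcium-binding genes and other symbols whose stem is the letter S gave 8 of 20 lower, with S100a16 at 1.27 FPKM and 56.8.

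**Figure D5:**
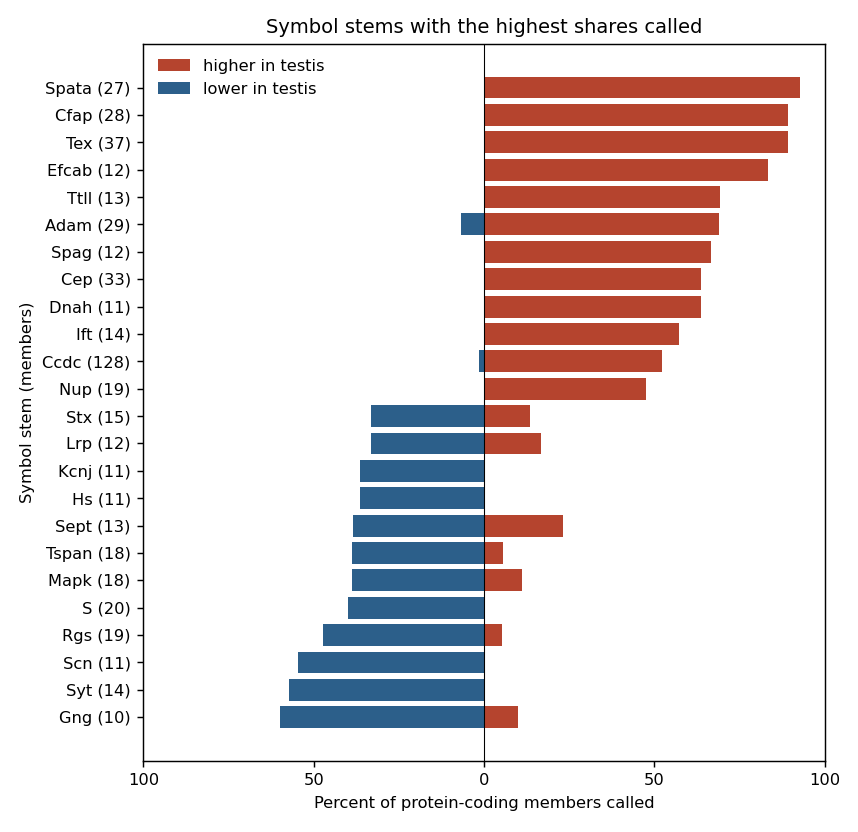
Percent of protein-coding members called higher (red, to the right) and lower (blue, to the left) in testis for the 12 symbol stems with the highest share higher and the 12 with the highest share lower; member numbers stand in parentheses. Spata (25 of 27), Cfap (25 of 28) and Tex (33 of 37) reach the highest shares, and Sept, Lrp and Stx carry bars on both sides.

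Position on the chromosomes was not part of the rule. Of 770 X-linked protein-coding genes 161 (20.9%) were higher in testis and 138 (17.9%) lower, against 14.4% and 10.1% of 18079 autosomal genes, which is fewer in both directions. Over genes at 1 FPKM or more in either library the median difference was -0.67 for the X chromosome and -0.01 for autosomes. No autosome had as large a share lower, the highest being 13.4% on chromosome 18, and chromosome 14 had 20.4% higher, close to the X. On the Y chromosome 4 of 10 protein-coding genes were higher, Zfy1, Zfy2, Uba1y and Gm10352, which are named here after their values were seen. Gm10352 was at 26.1 FPKM in testis against 0.0405 in brain. The zinc finger gene Zfy1 and the ubiquitin-activating gene Uba1y were near the threshold, at 3.15 and 3.83 FPKM in testis, and both calls ended with either sum scaling.

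Neighbouring protein-coding genes with the same call formed 98 runs of 3 or more genes higher and 48 runs of 3 or more lower. The longest run held 10 genes higher on chromosome X (mm9, 24330066 to 32967088), with testis values of 10.7 to 75.5 FPKM and brain values up to 0.140 FPKM. Runs of 9 and 7 genes on chromosome 5 held Speer genes, and 2 runs of 8 lay on chromosome 14. These runs are made of near-identical copies, among which the sharing of reads is uncertain. Other runs held 6 members, of which 3 are named here after their values were seen. A cystatin cluster with Cst8, Cst9, Cst12 and Cst13 on chromosome 2 (148607745 to 148676670) ranged from 4.96 to 227 FPKM in testis and from 0 to 0.230 in brain. A protease cluster on chromosome 9 (110700670 to 110767132), Prss42 to Prss46 and Prss50, ranged from 6.87 to 52.0 FPKM in testis. The Tcp10 and Smok genes on chromosome 17 (13253977 to 13898832) ranged from 3.57 to 393 FPKM.

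Runs on the brain side were shorter. Gprasp1, Gprasp2, Bhlhb9, Arxes2, Arxes1 and Bex2, neighbours on chromosome X (132277272 to 132602775), were at 2.36 to 6.12 FPKM in testis and 21.5 to 163 in brain. A second run of 6, on chromosome 2 (175016566 to 175307672), held zinc finger genes such as Zfp965 and Zfp968 at up to 6.21 FPKM in testis and 8.18 to 41.2 in brain.

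Gene structure, taken from the annotation by identifier, differed between the called sets. The median annotated 3′ UTR was 363 bases for genes higher in testis, 1153 for genes lower and 932 for uncalled genes at 1 FPKM or more. Coding lengths were close, with medians of 1218, 1284 and 1362 bases. Genes with a single exon made up 6.22% of the higher genes (exact 95% interval 5.35 to 7.18%), 3.45% of the lower (2.69 to 4.36%) and 2.94% of the uncalled (2.60 to 3.32%). Over all protein-coding genes compared the share was 5.59% (5.27 to 5.93%), close to that of the higher genes. These intervals hold counting error only. FPKM divides by the transcript length that the authors' annotation gives, so a difference between the annotated and the used transcript end would change the value of the gene. Locus span went the same way as the UTRs. Among genes at 1 FPKM or more, 28.2% of those spanning under 5 kb were higher and 13.6% lower, whereas of those spanning 100 kb or more 14.1% were higher and 24.3% lower.

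Promoters were read from RefSeq windows (GRCm38.p6) that run from 250 bases before to 50 bases after a gene's start, taking the window farthest 5′ where a gene has several. A window was found for 2229 of the 2702 higher protein-coding genes on the chromosomes of that table (82.5%) and for 6981 of the 8509 uncalled genes at 1 FPKM or more (82.0%). For genes lower in testis the share was 79.6%, under the 80% that such a comparison needs, so it is void for them. The ratio of observed to expected CpG had a median of 0.60 for higher genes, 0.40 for those 16-fold or more higher and 0.77 for uncalled genes. Of the higher genes 37.2% were under 0.4, against 13.4% of the uncalled genes and 50.9% of the 27025 RefSeq windows, which include genes silent in both tissues. Over all protein-coding genes compared that had a window, 34.6% were under 0.4 and the median was 0.63, both close to the values of the higher genes.

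Motifs were searched as exact letters on both strands. GTTGCC, the core of the X-box bound by RFX factors, was in 20.1% of the windows of higher genes, in 23.7% of those 16-fold or more higher, in 11.8% of uncalled genes and in 12.7% of all RefSeq windows. The cAMP response element TGACGTCA was in 2.69%, 2.66%, 3.34% and 1.85% in the same order. TATAAA was in 8.84% of higher genes, 7.03% of uncalled genes and 14.2% of all RefSeq windows. For GCATGCGC, the core of the NRF1 site, these shares were 4.53%, 5.69% and 2.80%. By list, 13 of 31 windows of intraflagellar transport and basal body genes held GTTGCC, 7 of 26 of flagellum genes, 4 of 24 of acrosome genes and 3 of 19 of neural transcription factor genes. Transmitter synthesis and uptake genes, a brain list, gave 5 of 21, close to the share of the flagellum genes, and sperm ion channel genes gave none of 20, with windows for 20 of 27 members. A match is a string of letters, not a site shown to be bound.

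The windows that follow, chosen after their values were seen, show such matches before the start of genes that differed strongly, written 5′ to 3′ on the strand of the gene with the first match in capitals. The first group holds GTTGCC. Pdcl2, a phosducin-like gene of spermatids, was at 1020 FPKM in testis against 1.03 in brain (chr5:76331157-76331211, minus strand). Ropn1l, of the fibrous sheath, was at 2692 FPKM and 3.28 (chr15:31453690-31453739, minus strand). Actl7b, a germ cell relative of actin, was at 244 FPKM and 0.141 (chr4:56741426-56741472, minus strand).
Pdcl2: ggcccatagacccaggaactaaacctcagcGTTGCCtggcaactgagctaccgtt
Ropn1l: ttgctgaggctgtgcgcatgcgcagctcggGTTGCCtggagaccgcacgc
Actl7b: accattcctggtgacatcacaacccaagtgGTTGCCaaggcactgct
The second group holds TGACGTCA and shows that these letters stood on both sides of the comparison. Izumo1, the sperm protein of gamete fusion, was at 59.5 FPKM in testis against 0.0409 in brain (chr7:45621685-45621752, plus strand), and Ccin, a protein of the sperm head, at 106 and 0.0865 (chr4:43983424-43983491, plus strand). Sst, the somatostatin gene, was listed at 0 in testis and at 195 FPKM in brain (chr16:23890855-23890922, minus strand), and Chgb, a granin of secretory vesicles, at 6.85 and 187 (chr2:132781540-132781607, plus strand).
Izumo1: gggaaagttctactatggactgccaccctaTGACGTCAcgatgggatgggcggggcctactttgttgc
Ccin: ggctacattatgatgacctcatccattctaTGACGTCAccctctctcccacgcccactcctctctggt
Sst: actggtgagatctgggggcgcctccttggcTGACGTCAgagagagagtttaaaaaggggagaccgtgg
Chgb: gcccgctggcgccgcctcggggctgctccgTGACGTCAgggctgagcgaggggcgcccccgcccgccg
The same letters lie between Ccdc173 and Phospho2, which start in opposite directions on chromosome 2, and both were higher, with 173 and 177 FPKM in testis and 4.09 and 9.60 in brain.
Ccdc173: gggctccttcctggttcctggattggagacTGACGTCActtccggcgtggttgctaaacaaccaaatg
That window is chr2:69789545-69789612, written on the minus strand.

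Liver served to place the called genes in another organ. Of protein-coding genes higher in testis than in brain 31.3% (29.5 to 33.0%) reached 1 FPKM in liver, against 44.6% (42.4 to 46.8%) of those lower and 69.2% (68.2 to 70.2%) of those uncalled at 1 FPKM or more in either library. Some called genes were higher still in liver and are named here for their liver level. Apoc1 and Apoh, of plasma lipoproteins, were at 7927 and 1300 FPKM in liver, 40.0 and 50.6 in testis and 5.21 and 0.694 in brain. Bhmt, of methionine metabolism, was at 852 FPKM in liver, 28.3 in testis and 0.192 in brain. On the brain side Apoe, a lipid carrier made by astrocytes and hepatocytes, was at 1258 FPKM in brain against 77.6 in testis, with 10747 in liver.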

How the data were processed

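Each of the 3 deposited tables holds FPKM per Ensembl gene with a lower and an upper bound and a status, and per the submitters' processing notes the authors used TopHat 1.4.0, Bowtie 0.12.5 and Cufflinks 2.0.0 on mm9. The annotation, the filters, the level of the bounds and whether estimation used strand are not given in the sources used, so overlapping and antisense genes cannot be told apart. The labels give 76 cycles on 3 lanes, but the total and the mean of reads that they give do not match for 3 libraries, so the depth of each library is unknown here. The bounds correspond to a median half-width of 19.2% in testis and 18.2% in brain at 1 to 2 FPKM, and of 6.66% and 6.55% at 10 to 20 FPKM.

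Tables were joined on the gene identifier, 9 identifiers with more than 1 locus being summed. Symbols and classes came from GENCODE M21 by identifier, and promoters from RefSeq; coordinates of genes are mm9 and those of promoters GRCm38.p6. A gene was called at 4-fold or more on log2(FPKM + 1) with bounds that did not overlap. With 1 library per tissue no test was run. Of 1411 list entries, 18 found no gene, 2 were found through an older symbol and 1265 entered the comparison. The members and lists were chosen with earlier results of these data known. Named genes were up to 4 members per list with the largest called difference in its main direction and up to 2 in the other, at 5 FPKM or more in the higher library, all paralog pairs, the largest called members of named symbol stems, the 5 longest runs each way and the largest differences per class. Other genes are said to be chosen after their values were seen, or mark a cell type or the threshold. Alternatives were other pseudocounts, scalings, folds and filters. The call rule was tested on simulated data. Some genes and 2 of the pairs counted are not reported here by name. Python 3.11.15, numpy 2.4.6, pandas 2.3.3, scipy 1.17.1 and matplotlib 3.10.9 were used.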

Additional observations from a re-analysis of the deposited data

How the results depend on the processing

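A pseudocount cannot change the sign of a difference, and the scalings tried were too small to turn a called one. The sign of called differences was therefore fixed in advance. With either sum scaling 253 of 266 called genes named by the lists, pairs or classes kept their call. The count of genes higher in testis than in brain moved from 3910 to 6711 with a pseudocount of 0.01, to 6299 at 2-fold and to 2503 at 8-fold. The count of genes lower in testis than in brain moved from 2199 to 3792 and 4526 with pseudocounts of 0.1 and 0.01, to 4605 at 2-fold and to 1007 at 8-fold. The share of called genes on the testis side was 60.4% and 59.7% with those pseudocounts, 49.1% after protein-coding sum scaling, 52.7% after scaling to all genes, 57.8% at 2-fold, 71.3% at 8-fold, 58.4% among protein-coding genes and 61.0% with no limit on the span. Median-ratio scaling, a longer minimum span and ignoring the status or the intervals moved neither count by more than 1.5 times. Requiring 1 FPKM could not move them, because 4-fold on log2(FPKM + 1) already needs a higher level. Of 49 lists, 43 kept their side (a median of 4-fold or more either way, or neither) with a pseudocount of 0.1 or 0.01. Axon guidance, splicing regulators, microglia and endothelium then reached 4-fold toward brain, and Sertoli and DNA replication genes toward testis. After protein-coding sum scaling 45 lists kept their side, where chromatin packing and intraflagellar transport no longer reached 4-fold and axon guidance and microglia did so toward brain. With 1 library per tissue the difference between tissues and that between libraries cannot be told apart, and leaving out a replicate was not possible. No paired analysis was possible because each tissue has 1 library and no replicate number.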

Other observations

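Calls among long noncoding genes and pseudogenes were mostly on the testis side, while small RNAs gave 1 of 354 higher and 15 lower. Of 2824 long noncoding genes 421 (14.9%) were higher and 29 (1.03%) lower, and of 4543 pseudogenes 316 were higher and 104 lower. The noncoding gene 1700018B24Rik reached 466 FPKM in testis against 0.377 in brain, and 4930571K23Rik 287 against 0.230, while 4930570D08Rik, at 1393 FPKM, was listed at 0 in brain. On the brain side Meg3, an imprinted noncoding RNA, was at 481 FPKM against 8.68 in testis, and Pantr1, a neighbour of a neural transcription factor gene, at 776 and listed at 0. Of the long noncoding genes higher in testis, 2.85% reached 1 FPKM in liver (exact 95% interval 1.48 to 4.93%, counting error only). The ribosomal RNAs of mitochondria, mt-Rnr1 and mt-Rnr2, stood at 6492 and 7704 FPKM in brain and 138 and 212 in testis. Pgk1-rs7, a pseudogene near-identical to Pgk1, was at 229 FPKM in brain against 8.44 in testis, a value that is uncertain because the copies share sequence.

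Genes without an OK estimate include well known ones such as Crem, Camk2a and Hk1. Of these 1520 genes 1231 are protein-coding. By the same rule 124 would be higher and 130 lower, but their lower bound was 0 for 1053 in testis and 966 in brain, so they were left out of all counts.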
